A study of Mus musculus with 8 samples.

Results

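Type B intercalated cells are a minority cell type of the connecting tubule and cortical collecting duct that secretes bicarbonate and takes up chloride. Genes known from these cells, headed by pendrin, were followed in the renal cortex of SPAK KO mice and wild-type (WT) littermates. The set holds 8 genes (Slc26a4, Slc4a8, Slc4a9, Oxgr1, Hmx2, Insrr, Foxi1 and Hepacam2) out of 19938 measured, and each was read from the only probe set that carried its symbol alone. SPAK, the kinase encoded by Stk39, activates NaCl uptake in the distal convoluted tubule by phosphorylating the cotransporter that thiazides block. The study looked for genes whose joint response could offset the salt lost without it. All mice were C57Bl6J males aged 10 weeks on feed with 0.32% NaCl and 1% KCl. The labels name 4 mice per genotype and 1 array per mouse, and do not describe the disrupted allele or restrict it to a cell type. Stk39 itself read 8.11 to 8.60 on the WT arrays and 6.79 to 7.21 on the SPAK KO arrays (log2 scale).

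The deposited values are log2 RMA expression values, so a difference of 1 is a doubling, and the level of one gene cannot be set against that of another. The arrays did not spread alike. In any pair of SPAK KO arrays only 1 to 10 of the 6297 brighter genes (mean over 8) were more than 0.4 apart, as were 3 between WT 2 and WT 3. The 5 other WT pairs had 119 to 228 such genes. WT 2 and WT 3 were therefore counted as 1 sample in WT means ± SD (n = 3), and SPAK KO levels are given array by array or as a range. Nothing in the labels says how the RNA was divided, so p-values measure the spread between these arrays, which in SPAK KO may be technical.

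In a type B cell, pendrin (Slc26a4) sits in the apical membrane and exchanges luminal chloride for bicarbonate, while the proton pump lies on the basolateral side. The sodium-driven chloride/bicarbonate exchanger (Slc4a8) can work beside pendrin so that NaCl is absorbed without charge transfer, and the bicarbonate transporter AE4 (Slc4a9) provides a basolateral exit. Type A cells have the opposite polarity, with the anion exchanger Slc4a1 in the basolateral membrane, and secrete acid. Both types depend on the forkhead transcription factor Foxi1.

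Of the 8 genes 4 rose in SPAK KO. Those called higher were Hepacam2, Slc26a4, Oxgr1 and Insrr, by 1.42-fold to 1.60-fold (limma, Benjamini-Hochberg adjusted p under 0.05 over all genes). In the same fit 1.39% of all genes were called higher and 0.682% lower, 2.08% in either direction. That is 278 and 136 genes, and 673 and 88 with arrays centred on their median. The 4 genes that did not pass, Foxi1, Slc4a9, Hmx2 and Slc4a8, had differences of 0.38, 0.31, 0.20 and 0.10. No member was called lower, and all 8 differences lay above 0. The median difference was 0.44 over the 8 genes and -0.01 over all genes tested. On 5 of the 8 genes every SPAK KO array read above every WT array, which was so for 6.9% of all genes, and on none did every SPAK KO array read below, against 5.71% of all genes. In RNA from whole cortex, more cells of a type and more RNA per cell cannot be told apart.

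**Figure D1:**
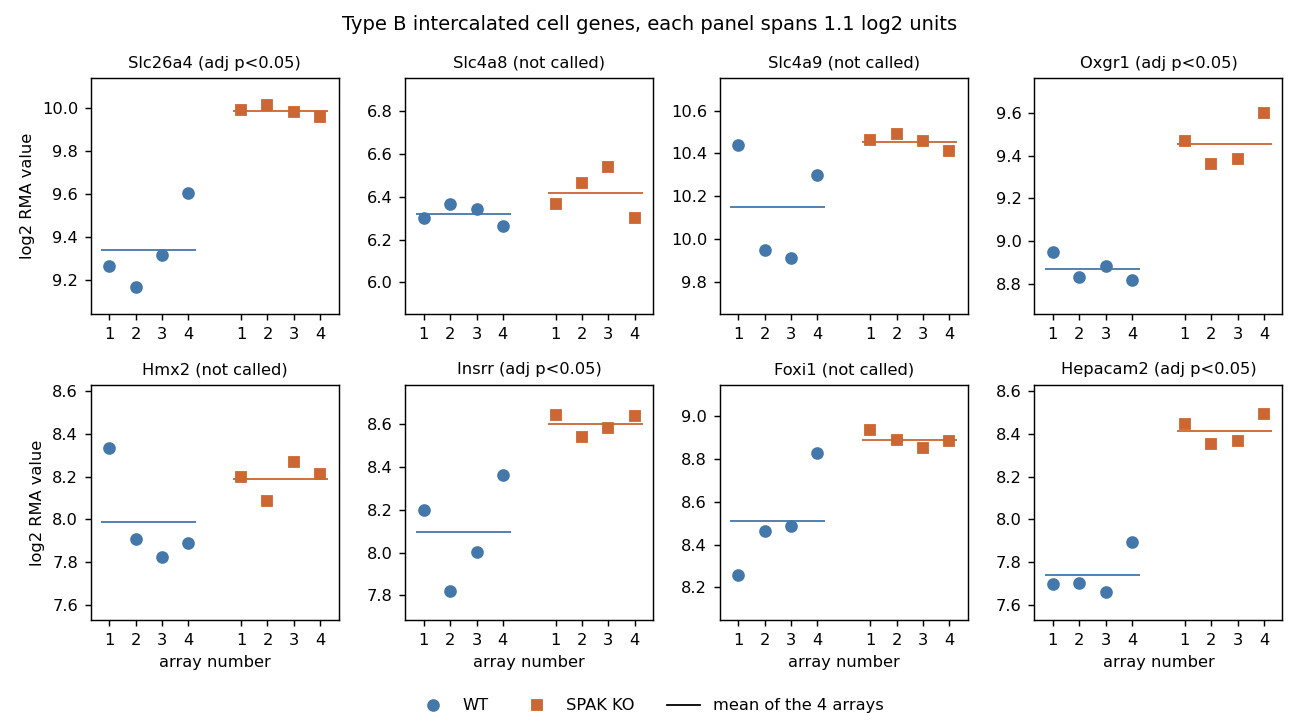
Log2 RMA values of the 8 genes on each array; circles are WT arrays, squares SPAK KO arrays, and lines the means of 4 arrays. Groups do not overlap for Slc26a4, Oxgr1, Insrr, Foxi1 and Hepacam2, and SPAK KO arrays lie closer together than WT arrays for every gene except Slc4a8 and Oxgr1.

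The sequence before the transcription start is shown for the 3 genes among those called that have an entry in the RefSeq promoter table (GRCm38.p6), Slc26a4, Oxgr1 and Hepacam2. All are on the minus strand and are written 5′ to 3′ along the gene. Capitals mark AGAACA or its reverse complement TGTTCT, a hexamer bound by mineralocorticoid and glucocorticoid receptors. The Slc26a4 stretch is chr12:31560056-31560234, from 250 to 72 bases before the start. The Oxgr1 stretch is chr14:120042436-120042685, the 250 bases before the start. For Hepacam2, whose window lies inside the gene's RefSeq span, only 30 bases are shown, chr6:3494647-3494676.
Slc26a4: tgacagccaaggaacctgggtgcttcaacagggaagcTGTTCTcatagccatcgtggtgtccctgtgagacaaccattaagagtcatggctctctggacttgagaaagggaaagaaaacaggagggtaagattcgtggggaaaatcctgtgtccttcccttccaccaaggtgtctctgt
Oxgr1: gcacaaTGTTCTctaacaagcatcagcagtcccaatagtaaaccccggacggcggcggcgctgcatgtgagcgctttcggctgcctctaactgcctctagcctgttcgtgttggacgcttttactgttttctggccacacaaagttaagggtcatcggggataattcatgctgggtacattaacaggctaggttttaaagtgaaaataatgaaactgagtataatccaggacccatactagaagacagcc
Hepacam2: cagccctgTGTTCTcgcAGAACAtataaca

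Of the 8 genes, 6 had entries, with 7 windows in all since Hmx2 has 2, while Slc4a9 and Insrr had no entry. In the 250 bases before each start, searched on both strands, this hexamer was found in 3 of 7 windows, those of Slc26a4, Oxgr1 and Hepacam2, and in 16.1% of 32851 promoter windows. The first match began 213 bases before the start of Slc26a4 and 244 before that of Oxgr1. Hepacam2 held 2 receptor hexamers, beginning 170 and 161 bases before the start, TGTTCT first and AGAACA after 3 bases. The full receptor site, AGAACA then TGTTCT with any 3 bases between, overlaps the hexamer and was in 0 of the 7 windows and in 0.00913% of all. The forkhead core TGTTTA, and the longer TGTTTAC that contains it, were in 0 of the 7 windows, against 12% and 3.17% of all. CAAGTG, the core bound by Hmx and Nkx5 proteins, was in 1, that of Foxi1, against 11.6% of all. These matches describe letters in a short window only.

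Pendrin, the apical chloride/bicarbonate exchanger that heads the set, read 9.26, 9.16, 9.32 and 9.60 on WT arrays 1 to 4. The SPAK KO values were 9.99, 10.02, 9.98 and 9.96 in the same numbering, which pairs no mice. WT 4 was the highest WT array and still lay below each SPAK KO array. The difference was 0.65 ± 0.08 (SE, 8 arrays), or 1.57-fold with a 95% interval of 1.38 to 1.79 (adjusted p = 0.0047), the 64th largest increase of the 19938 genes. Whichever of the 8 arrays was dropped it still passed, at 0.59 to 0.74. With agreeing arrays counted once the difference was 0.62; that fit has a single SPAK KO sample assumed to vary like WT, and limma then called 0 genes, with 618 at an unadjusted p under 0.05.

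The sodium-driven exchanger gene Slc4a8 did not pass. It read 6.30, 6.37, 6.34 and 6.26 on WT arrays 1 to 4. In SPAK KO it read 6.37, 6.46, 6.54 and 6.30. The groups overlapped, with 3 WT arrays above the lowest SPAK KO array. The difference was 0.10 ± 0.06 (adjusted p = 0.406), with a 95% interval of -0.04 to 0.23, whose upper end is 1.18-fold.

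Slc4a9, which carries bicarbonate across the basolateral membrane, read 10.44, 9.95, 9.91 and 10.30 on WT arrays 1 to 4. Its SPAK KO values were 10.46, 10.49, 10.46 and 10.41. WT 1 reached the SPAK KO level, and WT 2 and WT 3 lay lowest. The difference of 0.31 ± 0.11 did not pass (adjusted p = 0.171; 95% interval 0.06 to 0.55), nor did it in any of the 8 fits without 1 array. In WT its SD was 0.26 (n = 3), close to the difference itself.

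Both receptor genes of the set were higher. Oxgr1, the apical receptor for 2-oxoglutarate through which luminal 2-oxoglutarate stimulates chloride/bicarbonate exchange, read 8.95, 8.83, 8.88 and 8.82 on WT arrays 1 to 4. The SPAK KO values were 9.47, 9.36, 9.38 and 9.60. It had a narrow WT spread (range 0.13) and a clear gap between groups, and differed by 0.58 ± 0.06, or 1.497-fold with a 95% interval of 1.36 to 1.65 (adjusted p = 0.0023). It passed in all 8 fits without 1 array, at 0.53 to 0.61.

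Insrr, an orphan relative of the insulin receptor that is activated by extracellular alkali, read 8.20, 7.82, 8.001 and 8.36 on WT arrays 1 to 4. In SPAK KO it read 8.64, 8.54, 8.58 and 8.64. The groups did not overlap, but the WT arrays spanned 0.54. The difference was 0.51 ± 0.10, or 1.42-fold (adjusted p = 0.0330). This call was less firm: it passed in only 2 of the 8 fits without 1 array, those without WT 1 and without WT 4, and not with WT 2 and WT 3 averaged (0.44, adjusted p = 0.066).

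Hepacam2, a cell adhesion molecule of the immunoglobulin superfamily found in intercalated cells, had the largest difference of the 8. It read 7.70, 7.70, 7.66 and 7.89 on WT arrays 1 to 4. Its SPAK KO values were 8.45, 8.35, 8.37 and 8.49. Every SPAK KO array lay well above WT 4, the highest WT array. The difference was 0.68 ± 0.06, or 1.60-fold with a 95% interval of 1.45 to 1.76 (adjusted p = 0.0012), the 54th largest increase of all genes, and it passed in all 8 fits without 1 array.

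The transcription factor genes gave smaller differences that did not pass. Foxi1, which drives the intercalated cell programme, read 8.26, 8.46, 8.49 and 8.83 on WT arrays 1 to 4. The SPAK KO values were 8.94, 8.89, 8.85 and 8.88. The groups did not overlap, by a margin of hundredths between WT 4 and SPAK KO 3. The difference was 0.38 ± 0.10 (adjusted p = 0.0881; 95% interval 0.16 to 0.60). It passed in 1 of the 8 fits without 1 array, that without WT 4 (0.49, adjusted p = 0.0070). It also passed with arrays centred on their median (0.44, adjusted p = 0.0442) and with the trend and robust options of eBayes (adjusted p = 0.0332). It did not pass with quantile normalization, cyclic loess or WT 2 and WT 3 averaged (limma adjusted p = 0.105, 0.102 and 0.152).

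Hmx2, a homeobox factor enriched in type B cells, read 8.33, 7.91, 7.83 and 7.89 on WT arrays 1 to 4. In SPAK KO it read 8.20, 8.09, 8.27 and 8.21. WT 1 was the highest of all 8 arrays and the other 3 WT arrays were the lowest. The difference was 0.20 ± 0.10 (adjusted p = 0.318; 95% interval -0.03 to 0.43), and 0.32 without WT 1 (adjusted p = 0.0283).

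**Figure D2:**
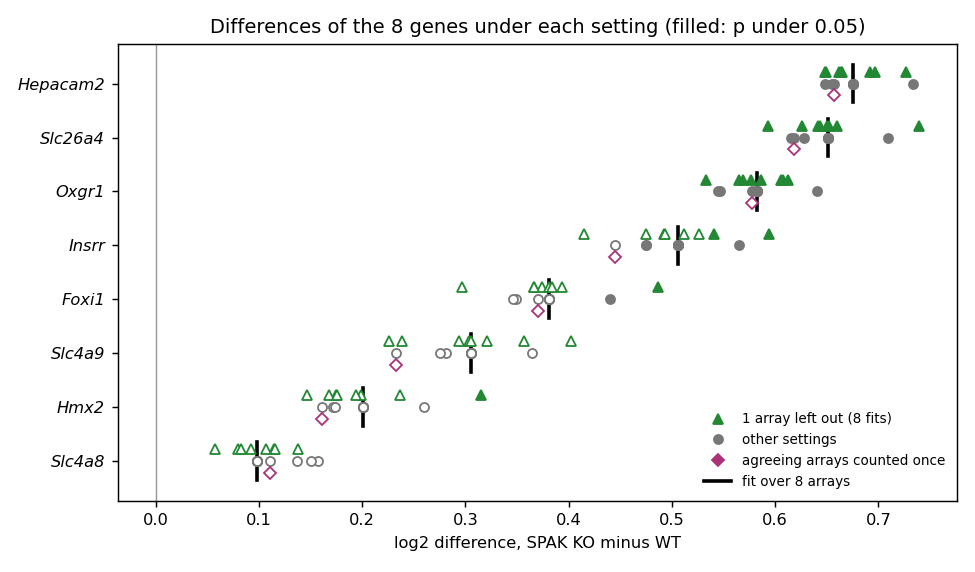
Log2 difference (SPAK KO minus WT) of each gene in the fit over 8 arrays (bar) and under every other setting, with 1 array left out as triangles and agreeing arrays counted once as diamonds; filled symbols have p under 0.05 (adjusted over all genes, or unadjusted for the exact permutation test, which is among the circles). All 8 genes stay above 0, and Slc26a4, Oxgr1 and Hepacam2 are filled throughout except where agreeing arrays were counted once.

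The 8 genes did not vary together among WT arrays. WT 1 had the highest Slc4a9 and Hmx2 of the WT arrays and the lowest Foxi1, and WT 4 had the highest Slc26a4, Insrr, Foxi1 and Hepacam2. Their mean log2 value was 8.43, 8.28, 8.304 and 8.50 on WT arrays 1 to 4, and 8.78 to 8.81 on the SPAK KO arrays.

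Genes shared by both intercalated cell types were called higher in part. Of 11 such genes 10 were measured, 5 were called higher and 0 lower, against 1.39% and 0.682% of all genes. They were the proton pump subunit genes Atp6v1g3 (0.52 ± 0.07, adjusted p = 0.0046), Atp6v1c2 (0.44 ± 0.07), Atp6v1b1 (0.39 ± 0.07) and Atp6v0d2 (0.36 ± 0.05, adjusted p = 0.0046), and the ammonia transporter gene Rhbg (0.31 ± 0.05). When arrays were dropped in turn, Atp6v1b1 stayed called 2 times in 8 and Rhbg 4 times in 8. The list had a median difference of 0.29. In 8 of its 10 genes every SPAK KO array lay above every WT array, as in 6.9% of all genes. The transcription factor gene Tfcp2l1 differed by 0.28 ± 0.10 and the carbonic anhydrase gene Car2 by 0.20 ± 0.07, and neither passed. The pump subunit gene Atp6v0a4, at -0.03 ± 0.04, was the only one with a difference below 0.

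Of 6 type A markers 0 were called (limma), where 2.08% of all genes were. Of these markers 3 had an unadjusted p under 0.05, all with differences above 0. Over all genes tested 19.1% had an unadjusted p under 0.05, 9% higher and 10.1% lower. The chloride transporter gene Slc26a7, the transcription factor gene Dmrt2 and the intracellular water channel gene Aqp6 differed by 0.20 ± 0.06, 0.17 ± 0.05 and 0.31 ± 0.14 (adjusted p = 0.119, 0.108 and 0.246). Slc4a1, the type A counterpart of pendrin, read 8.61, 9.21, 9.09 and 8.80 on the WT arrays and 8.74 to 8.82 on the SPAK KO arrays, which lay within the WT range. Its difference was -0.15 ± 0.11 (adjusted p = 0.509; 95% interval -0.40 to 0.10). It was the only type A marker with a difference below 0; Kit and Adgrf5, the remaining ones, gave 0.21 ± 0.10 and 0.13 ± 0.07. The list's median difference was 0.18. Its mean log2 value was 7.60 to 7.79 in WT and 7.83 to 7.92 in SPAK KO, without overlap, and that of the genes of both types was 10.14 to 10.32 and 10.47 to 10.505. The thick ascending limb, proximal tubule and podocyte lists did not overlap either, while the principal cell, endothelial and immune lists did. The podocyte list holds Nphs1, whose difference changed sign with the probe sets used (0.15 on the brighter of 2, -0.17 as their mean).

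**Figure D3:**
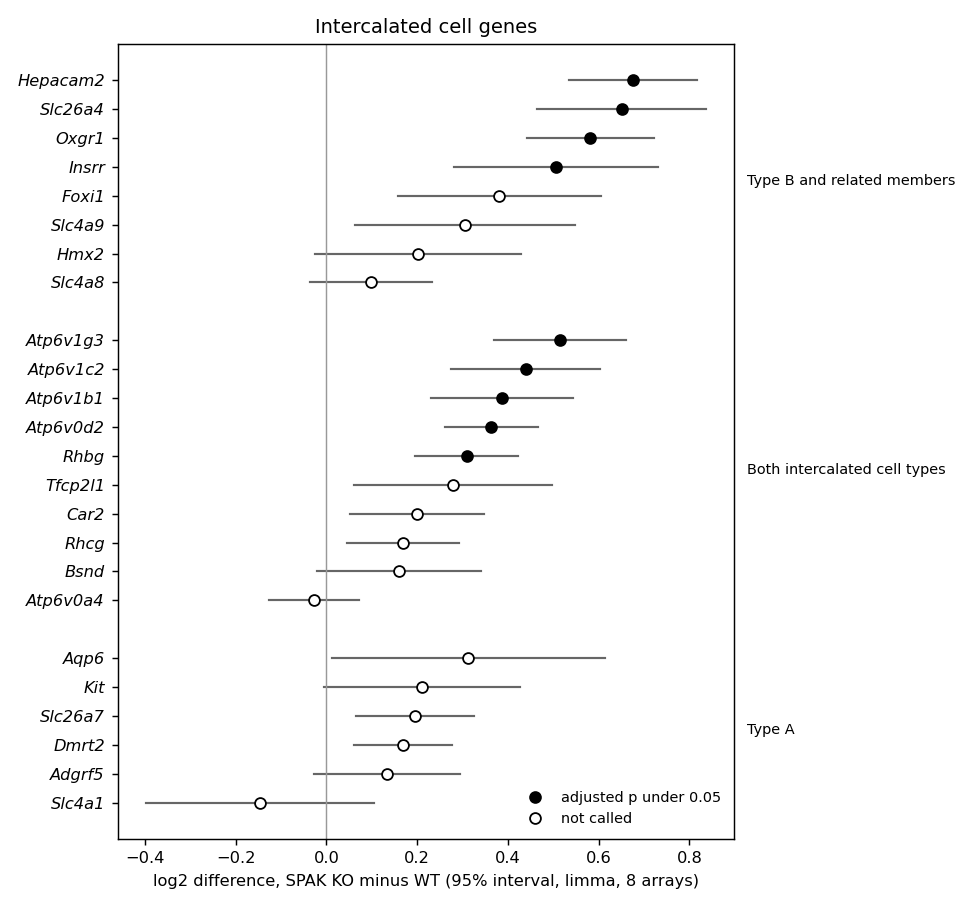
Log2 difference (SPAK KO minus WT) with its 95% interval from limma for the 8 genes, for 10 genes of both intercalated cell types and for 6 type A markers; filled points were called. Filled points appear in the upper blocks, 4 and 5 of them, and none among the type A markers, of which Slc4a1 lies below 0 and the other 5 above.

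Whether pendrin changed by another amount than its neighbours was tested directly, by the difference of 2 genes on each array and an exact two-sided permutation test over arrays. With 4 arrays against 4 the smallest p this test can give is 0.0286. Slc26a4 minus Slc4a1 ran from -0.04 to 0.80 on the WT arrays and from 1.17 to 1.24 on the SPAK KO arrays, a gap of 0.80 between means. Slc4a1 is the type A marker that went against its list, so this gap is that of 1 gene, and pendrin was not tested against the other 5. Slc26a4 minus Foxi1 ran from 0.70 to 1.01 and from 1.06 to 1.13, a gap of 0.27. Slc26a4 minus Atp6v1b1 ran from -1.16 to -0.91 and from -0.83 to -0.67, a gap of 0.26. Pendrin was tested against no other pump subunit gene. Of those, Atp6v1g3 (0.52) and Atp6v1c2 (0.44) differed by more than Atp6v1b1 (0.39), and Atp6v0d2 (0.36) and Atp6v0a4 (-0.03) by less. In all 3 comparisons every SPAK KO array lay above every WT array (exact permutation p = 0.0286, and 0.0286 adjusted over the 3). With 1 array left out the exact permutation p adjusted over the 3 ran from 0.0286 to 0.0571. The latter came without any one of the SPAK KO arrays and, for Atp6v1b1, without WT 2. In these fits the SPAK KO arrays still lay above all WT arrays. The rise reflects the smaller number of ways to divide the arrays, and not an overlap of groups. The gaps stayed above 0, and ran from 0.65 to 0.93 for Slc4a1, 0.23 to 0.33 for Foxi1 and 0.21 to 0.29 for Atp6v1b1. The close agreement of the SPAK KO arrays bears on these p-values as on the others.

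**Figure D4:**
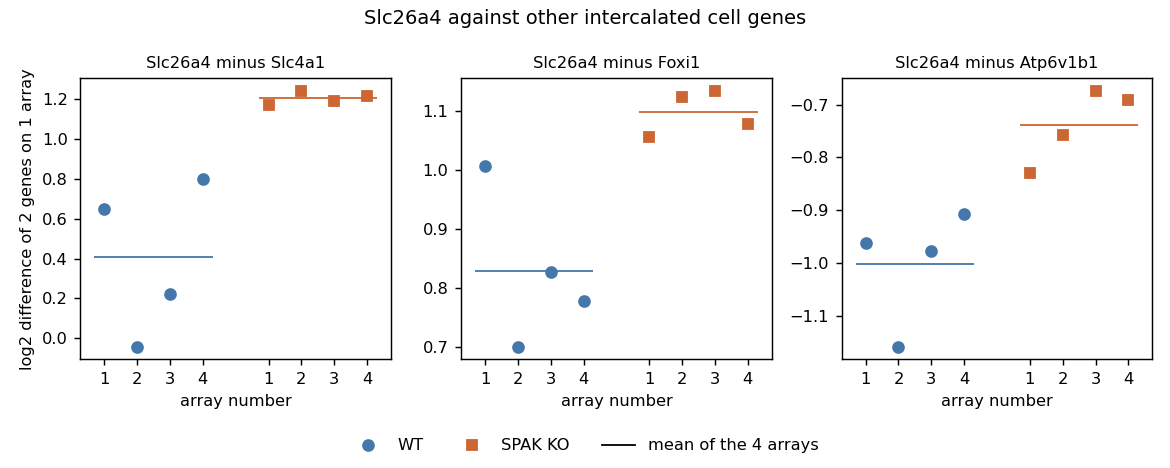
Difference in log2 value between Slc26a4 and Slc4a1, Foxi1 or Atp6v1b1 on each array, WT as circles and SPAK KO as squares, with lines at the means of 4 arrays. In each panel the squares lie above all circles; the vertical position itself depends on the probe sets and has no meaning between panels.

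None of the close relatives of the members was called. Since 2.08% of all genes were called in either direction, 0 calls in lists this short is near that share. Of 10 other Slc26 genes 0 were called, 3 had an unadjusted p under 0.05 (19.1% of all genes did), and the median difference was 0.0028. The largest in size were Slc26a10 (-0.25 ± 0.11), Slc26a7 and Slc26a8 (-0.16 ± 0.06). Of 7 other Slc4 genes 0 were called and 0 had an unadjusted p under 0.05, with differences from -0.15 to 0.06. They include Slc4a4, the basolateral sodium bicarbonate cotransporter of the proximal tubule (-0.03 ± 0.05). Of 8 relatives of the other members 0 were called and 1 had an unadjusted p under 0.05, again against 19.1% of all genes. The insulin receptor gene Insr differed by 0.09 ± 0.05, Foxi2 by -0.22 ± 0.12 and Foxi3 by -0.18 ± 0.08.

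Among 10 measured genes of hormone and signal control around pendrin cells, 2 were higher and 0 lower. All genes tested gave 1.39% and 0.682%. The list mean was 8.84 to 8.99 in WT and 9.09 to 9.12 in SPAK KO. Guca2a, which encodes guanylin, rose by 0.63 ± 0.08 (adjusted p = 0.0049), and passed in all 8 fits without 1 array. Sgk1, an aldosterone-induced kinase, rose by 0.50 ± 0.09 (adjusted p = 0.0209), in 4 of those 8 fits. The adenylyl cyclase gene Adcy6 differed by 0.24 ± 0.06 (adjusted p = 0.0772), the secretin receptor gene Sctr by 0.37 ± 0.11 and the mineralocorticoid receptor gene Nr3c2 by 0.24 ± 0.09, and none of them passed. Agtr1a, the angiotensin receptor gene, gave -0.05 ± 0.07.

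Among 11 genes of intercalated against principal cell fate, where Notch signalling favours the principal cell, 2 were higher and 0 lower. All genes tested gave 1.39% and 0.682%. The list mean was 7.69 to 7.76 in WT and 7.83 to 7.88 in SPAK KO. Hes1, a Notch target, rose by 0.47 ± 0.06 (adjusted p = 0.0053) and Jag1, a Notch ligand, by 0.33 ± 0.06 (adjusted p = 0.0169), the latter in 4 of the 8 fits without 1 array. Notch1 and Notch2 gave -0.0037 ± 0.06 and 0.13 ± 0.09. The principal cell markers were mixed, with 1 of 8 higher, the sodium channel subunit gene Scnn1b (0.28 ± 0.05), and 2 lower, the water channel genes Aqp2 (-0.29 ± 0.06) and Aqp4 (-0.35 ± 0.07), each in at most 2 of the 8 fits without 1 array. Aqp2 and Aqp4 were also lost with arrays centred on their median, and Aqp4 with quantile normalization and with cyclic loess. The mean log2 value of the principal cell markers overlapped between genotypes, at 8.45 to 8.56 in WT and 8.51 to 8.57 in SPAK KO.

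Markers of other cells differed in part as well, where 1.39% of all genes were called higher and 0.682% lower. Of 7 distal convoluted and connecting tubule genes, S100g was higher (0.35 ± 0.06) and 2 were lower, Pvalb (-1.30 ± 0.09) and Trpm6 (-0.63 ± 0.10), and the list mean was 10.35 to 10.46 in WT and 10.17 to 10.21 in SPAK KO. Of 7 thick ascending limb genes Cldn16 and Casr were higher, with a list mean of 9.79 to 9.85 in WT and 10.00 to 10.03 in SPAK KO. Of 8 proximal tubule genes Aqp1 was higher, with a list mean of 12.29 to 12.35 and 12.39 to 12.40. Podocyte (4 genes) and endothelial (7) lists had 0 calls, with 2 and 1 genes at an unadjusted p under 0.05, where all genes gave 19.1%. Nphs1, 1 of these 2 podocyte genes, differed by 0.15 on the probe set used but by -0.17 as the mean of its 2 probe sets. Of 7 immune cell genes Cd3e was lower (-0.31 ± 0.06), with a list mean of 6.34 to 6.40 in WT and 6.29 to 6.35 in SPAK KO. With arrays dropped in turn, Pvalb, Trpm6 and Cldn16 passed 8 times in 8, Aqp1 5 times, S100g 3 times, Casr 2 times and Cd3e 1 time. Cd3e was also lost with arrays centred on their median, with quantile normalization and with cyclic loess. The part of these other cells in the differences of the 8 genes was not tested.

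The genes whose 8 values lay nearest to those of pendrin, each gene centred on its own mean, were Hao2, Car15, Dmgdh, Wfdc2 and Malrd1. Their root mean square distances from pendrin were 0.0561, 0.0654, 0.0741, 0.0774 and 0.0782, against a median of 0.364 over all other genes. Hao2 encodes a peroxisomal hydroxyacid oxidase and Car15 a membrane-bound carbonic anhydrase, which read 9.92, 9.69, 9.79 and 10.25 on the WT arrays and 10.51 to 10.61 on the SPAK KO arrays. Among the 7 other members Hepacam2 came 10th (0.0866), Insrr 25th (0.113), Foxi1 80th and Oxgr1 81st (both 0.158), followed by Slc4a9 (0.232), Hmx2 (0.31) and Slc4a8 (0.315). This order describes 8 arrays of 2 genotypes, in which any gene with a like difference lies near.

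**Figure D5:**
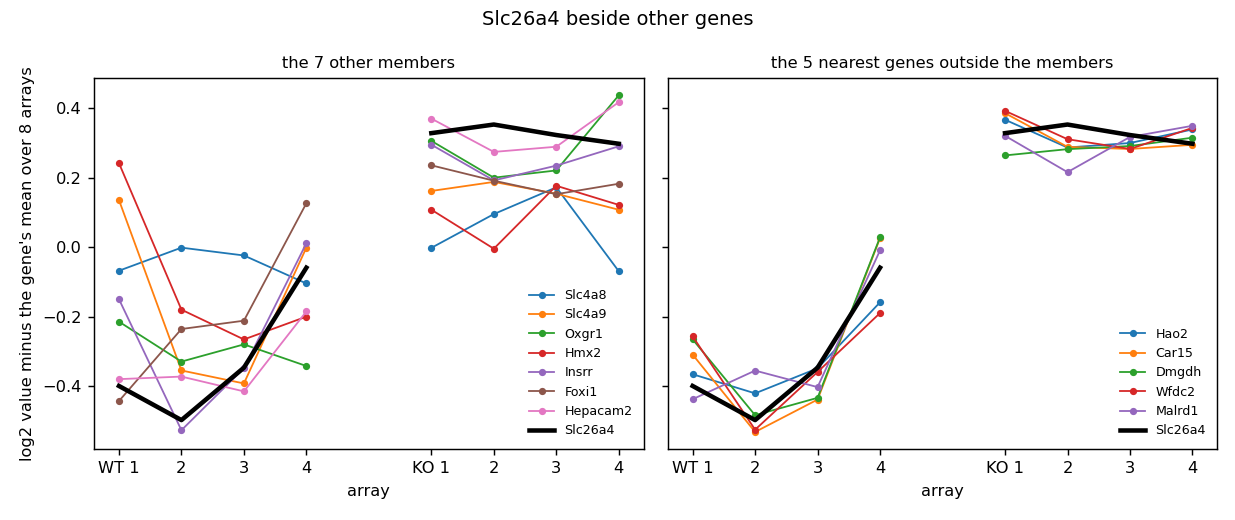
Log2 value minus the gene's own mean over the 8 arrays, for Slc26a4 (thick black) beside the 7 other members (left) and the 5 nearest genes outside them (right); lines join arrays of a genotype for legibility only. On the left Slc4a9 and Hmx2 lie above their mean on WT 1 where Slc26a4 lies below its own, and on the right the 5 genes run close to Slc26a4 on all arrays.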

How the data were processed

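Total RNA of dissected renal cortex (6 µg per sample) was labelled with biotin and hybridised to 1-colour Affymetrix arrays, per the labels' protocols. The values the authors deposited are on a log2 scale; the submitters' processing notes name RMA and Affymetrix Expression Console. RMA corrects background, makes the arrays' distributions alike and combines the probes of a set. Version, genome build and filters are not given in the sources used here, and no detection call comes with the values. The number of arrays limits the precision. Of 35556 probe sets, 21789 had 1 gene symbol in the platform annotation, 1621 several and 12146 none. Per gene the probe set with the highest mean was used.

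Genotype was fitted with limma 3.58.1 (R 4.3.3; lmFit, eBayes) over 8 arrays and 19938 genes, and a gene was called at a Benjamini-Hochberg adjusted p under 0.05. The fit was tested on simulated data with independent arrays and the same spread in both groups. The arrays here are not so, and that test does not give the error rate for them. Replicate numbers did not pair samples. The members, 14 further gene lists and tests were chosen with earlier results of these data known. Named genes are the members, Stk39, up to 3 genes per list with the smallest p, Slc4a1, Atp6v1b1 and the 5 genes nearest to Slc26a4; any other gene was named after its values were seen. Alternatives varied normalization, filters, probe sets, variance model, arrays and pairing. Promoter sequences are RefSeq's; 6 of 8 members matched.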

Additional observations from a re-analysis of the deposited data

Results flagged for a closer look

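In groups of 4 arrays, 4 of the 106 groups tested had 1 array set apart from the other 3 by a larger share of the group's range than Dixon's 95% limit, where chance gives about 5%. Hmx2 read 8.332 on WT 1, against 7.825 to 7.911 on the other WT arrays. Slc26a8 read 4.381 on WT 4, against 4.212 to 4.233. Aqp4 read 5.754 on WT 4, against 5.485 to 5.499. Slc12a1, the Na-K-2Cl cotransporter gene, read 10.79 on WT 4, against 10.62 to 10.64.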

How the results depend on the processing

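Across 19 alternatives, all 8 members kept a difference above 0. Of their differences under these settings 136 stayed on the same side of the threshold, 11 lost the call and 5 gained it. The exact permutation test was judged on its unadjusted p, and there Foxi1 was counted as a gain. The losses include those with agreeing arrays counted once. Over 8 arrays 278 genes were higher and 136 lower. These counts became 673 and 88 with arrays centred on their median, 526 and 241 with trend and robust options, 175 and 78 with WT 2 and WT 3 averaged, and 129 and 45 with the replicate number as a block; 462 were higher with means under 6 left out. With 1 array left out they ran from 106 to 407 higher (fewest without SPAK KO 1, most without WT 4) and from 50 to 218 lower. Members called higher then numbered 3 to 5. The replicate block kept 4 members called; deviations of same-numbered arrays correlated at -0.05, 0.08, -0.129 and 0.133, and 2 WT and 0 SPAK KO arrays correlated best with their own number. With agreeing arrays counted once, limma called 0 genes higher, 0 lower and 0 members; 618 genes had an unadjusted p under 0.05, and Slc26a4 gave 0.62 (adjusted p = 1). That fit holds 1 SPAK KO sample. With 1 array left out the gap of Slc26a4 ran from 0.65 to 0.93 against Slc4a1, from 0.23 to 0.33 against Foxi1 and from 0.21 to 0.29 against Atp6v1b1. Exact permutation of single members gave 5 at an unadjusted p under 0.05. They are the same 5 whose groups do not overlap, so this count adds nothing to that one. Every SPAK KO array lay above every WT array in 6.9% of all genes, and below in 5.71%. The values come with no detection call, so how far any gene stood above background is not known.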
